A study of Mus musculus with 12 samples.

Results

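The transcripts of 8 chemokine receptors, Cxcr3, Cxcr4, Cxcr6, Ccr2, Ccr4, Ccr6, Ccr7 and Ccr9, were measured in T cells with and without TCF-1, before and after allogeneic transplant. The receptors were picked by gene symbol, and they are 8 of the 35907 genes to which the deposited transcripts could be assigned. RNA was sequenced from 12 libraries in 4 groups of 3. WT and TCF-1 cKO (written cKO) Pre-Tx libraries are labelled as T cells, sorted from spleens of C57BL/6-background donor mice before transplant. They also held many transcripts of other cells, as given below. The 2 Post-Tx groups are donor T cells sorted back at day 7 from the spleens of lethally irradiated BALB/c mice, which had received the T cells together with T-cell-depleted WT bone marrow. TCF-1 cKO mice carry floxed Tcf7 alleles and a Cre recombinase driven by the Cd4 promoter. That promoter is active in thymocytes that go on to become CD4 or CD8 T cells, so both lineages lose the gene. All donors were adult, and the labels give each group 3 biological replicates, not naming the mouse behind each library. If replicates of a group shared an animal, the p-values would measure technical spread only.

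Chemokine receptors are transmembrane receptors that couple to inhibitory G proteins and steer leukocytes along gradients of chemokines. Ccr7 binds Ccl19 and Ccl21 and keeps naive and central memory T cells circulating through lymph nodes, and Cxcr4 binds Cxcl12, which retains cells in bone marrow. Cxcr3, the receptor of Cxcl9 and Cxcl10, and Cxcr6, the receptor of Cxcl16, are known from effector T cells that enter inflamed tissue. Ccr2 binds Ccl2 and is best known for moving monocytes, while Ccr4 goes with skin homing, Ccr6 with interleukin-17-producing T cells and B cells, and Ccr9 with homing to the small intestine. The comparisons ask whether loss of TCF-1 changes the receptor transcripts at rest and in the alloresponse, where the route of T cell migration bears on graft-versus-host disease.

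Cxcr3 lies on chromosome X of GRCm38 (101731535 to 101734269), Cxcr4 on chromosome 1 (128588199 to 128592293), Ccr6 on chromosome 17 (8236043 to 8257141) and Ccr7 on chromosome 11 (99144196 to 99155077). The other 4 are on chromosome 9, Ccr4 from 114490316 to 114504916, Ccr9 from 123678439 to 123784330, Cxcr6 from 123806475 to 123811760 and Ccr2 from 124101950 to 124113557. The Cxcr6 gene lies within the span of Fyco1 on the other strand, and the span of Ccr9 is shared with 4 annotated genes, of which Lztfl1, Slc6a20a and 1 pseudogene are on the other strand and 1 pseudogene is on its own. The library kit is not stated to keep strand, so reads of these partners cannot be told apart where exons overlap. No gene in the files overlaps the other 6 receptors. The promoters of the receptors whose level was called different between the genotypes at a stage are shown, because the letters that TCF-1 is known to bind can be looked for in them. They are the 250 bases before the RefSeq start of each gene on GRCm38.p6, Cxcr3 at chrX:101734148-101734397 on the minus strand, Cxcr6 at chr9:123806227-123806476 on the plus strand and Ccr2 at chr9:124101933-124102182 on the plus strand, with letters found in a motif search in capitals.
Cxcr3: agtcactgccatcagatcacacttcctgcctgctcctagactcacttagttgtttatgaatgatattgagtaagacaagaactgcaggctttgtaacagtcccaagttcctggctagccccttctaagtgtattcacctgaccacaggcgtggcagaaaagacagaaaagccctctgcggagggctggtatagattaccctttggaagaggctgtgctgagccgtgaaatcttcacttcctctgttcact
Cxcr6: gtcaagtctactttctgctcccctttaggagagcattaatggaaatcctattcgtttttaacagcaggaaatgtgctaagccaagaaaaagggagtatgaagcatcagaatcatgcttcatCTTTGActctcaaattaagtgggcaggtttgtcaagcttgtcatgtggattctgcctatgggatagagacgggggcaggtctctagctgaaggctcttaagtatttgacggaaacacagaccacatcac
Ccr2: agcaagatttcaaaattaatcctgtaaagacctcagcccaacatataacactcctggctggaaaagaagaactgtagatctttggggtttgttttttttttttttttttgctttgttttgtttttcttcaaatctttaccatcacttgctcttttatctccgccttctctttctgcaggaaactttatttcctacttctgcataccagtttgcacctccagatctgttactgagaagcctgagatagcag

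The letters searched on both strands were CTTTGA for TCF/LEF factors, GGTGTGA for T-box factors and CCACCC for KLF factors, none of which contains another. Of 32851 promoters of the same length, 13.8% held CTTTGA, 3.33% held GGTGTGA and 28.1% held CCACCC. Cxcr6 held CTTTGA at 129 to 124 bases before its start, whereas Cxcr3, Cxcr4 and Ccr2 held none of the 3 motifs in this window. Ccr4 held CTTTGA on the other strand at 30 to 25 bases, Ccr6 held it once in each of its 2 RefSeq promoters, and Ccr9 held CCACCC at 74 to 69 bases before the start. A match is a description of these letters and not a binding site. The gene spans given above can begin before the RefSeq start used here. Most of the Ccr2 window and part of the Cxcr3 window thus lie inside the annotated gene. So do the Ccr4 and Ccr9 windows and the Ccr6 window nearer the end of that gene. Ccr7 was without a promoter entry.

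Library totals ran from 17103415 to 49486745 counts. Values are given as CPM, the counts of a gene per 1000000 counts of its library, or as TPM, which also corrects for transcript length and is used wherever levels of different genes are compared. Fold changes and adjusted p-values are from edgeR's quasi-likelihood test, which adds TMM normalization factors that CPM do not contain. Over all 12 libraries these factors were 1.19 to 1.31 in Post-Tx cKO and 0.873 to 1.10 in Post-Tx WT. The genotype fits computed their own factors from the 6 libraries of a stage, which are not given here. After transplant the genotype fold change of each receptor was likewise lower in cKO than the ratio of the CPM. Tcf7 itself was at 159 ± 21.6 CPM in Pre-Tx cKO and 162 ± 44.3 CPM in Pre-Tx WT, and differed by -0.04 on the log2 scale before transplant (adjusted p = 0.924) and by -0.66 after it (adjusted p = 0.0669). Counts over whole transcripts cannot show the loss of a floxed exon alone, so these values do not check the genotype labels, which are used as given. The labels name CD4 T cells throughout, while the study's methods and design text also name CD8 T cells, and Cd4 CPM were 0.528 to 1.06 times Cd8a CPM in the Pre-Tx libraries and 53.0 to 1117 times after transplant. Before transplant Cd8b1 was at 223 to 325 CPM and Cd4 at 65.4 to 151 CPM. Cd8a and Cd8b1 summed to 301 to 321 CPM in Pre-Tx cKO and 386 to 491 CPM in Pre-Tx WT. After transplant they summed to 55.9 to 57.6 CPM in cKO and 20.5 to 42.3 CPM in WT. The part of CD8 T cells in the receptor values was not tested. The Pre-Tx libraries also held many B cell transcripts, with 10 markers summing to 7724 to 9927 CPM against 42.0 to 109 CPM after transplant. By comparison, 9 T cell markers summed to 1527 to 3001 CPM before and 5164 to 8371 CPM after. The 6 erythroid markers summed to 4516 to 26122 CPM before and 709 to 5745 CPM after. T cell markers summed to less in cKO at both stages. Before transplant 5 of 9 were called lower and after it 9 of 9, where 5.65% and 3.13% of all genes were. In such bulk RNA, fewer cells of a type and less RNA per cell cannot be told apart.

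Before transplant Ccr7 dominated the 8 receptors, and after transplant Cxcr6 and Cxcr3 did. The Pre-Tx order is that of libraries that also held B cell and other transcripts, not of T cells alone. In Pre-Tx WT, Ccr7 stood at 356 ± 94.2 TPM (mean ± SD, n = 3 in every group) and took 71.2% to 76.0% of the summed TPM of the 8. Cxcr3 followed with 44.8 ± 1.15 TPM, Ccr6 with 43.1 ± 20.6 TPM and Cxcr6 with 22.0 ± 11.04 TPM, and the ranges of these neighbours overlapped. Cxcr4, Ccr9, Ccr2 and Ccr4 stood at 9.35, 5.39, 3.42 and 2.84 TPM, each overlapping the next. In Pre-Tx cKO, Ccr7 was again first with 311 ± 17.6 TPM, but its share was 53.3% to 61.8%, below that of every Pre-Tx WT library. Ccr6 with 75.3 ± 15.8 TPM, Cxcr6 with 64.3 ± 17.3 TPM and Cxcr3 with 46.4 ± 9.12 TPM overlapped each other and were clear of Ccr9, Ccr2 and Cxcr4 at 10.8, 10.8 and 10.01 TPM.

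In Post-Tx WT, Cxcr6 reached 575 ± 34.8 TPM and 54.3% to 60.1% of the sum, and Cxcr3 296 ± 40.6 TPM and 26.5% to 34.5%. Ccr2 followed with 45.8 ± 12.1 TPM, clear of Ccr9 with 27.7 ± 3.65 TPM, which overlapped Ccr7 with 24.9 ± 2.20 TPM. In Post-Tx cKO the order began with Cxcr6 at 559 ± 93.4 TPM and Cxcr3 at 190.1 ± 21.2 TPM, whose ranges did not overlap. Cxcr6 then took 62.4% to 64.7% and Cxcr3 20.4% to 22.7% of the sum, so every cKO library had a larger share of Cxcr6 and a smaller share of Cxcr3 than every WT library. Ccr9 with 46.6 ± 10.9 TPM came next and overlapped Ccr2 with 31.4 ± 8.66 TPM. The lowest receptor was Ccr6 in Post-Tx WT with 3.91 ± 0.165 TPM and Cxcr4 in Post-Tx cKO with 4.93 ± 1.67 TPM.

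**Figure D1:**
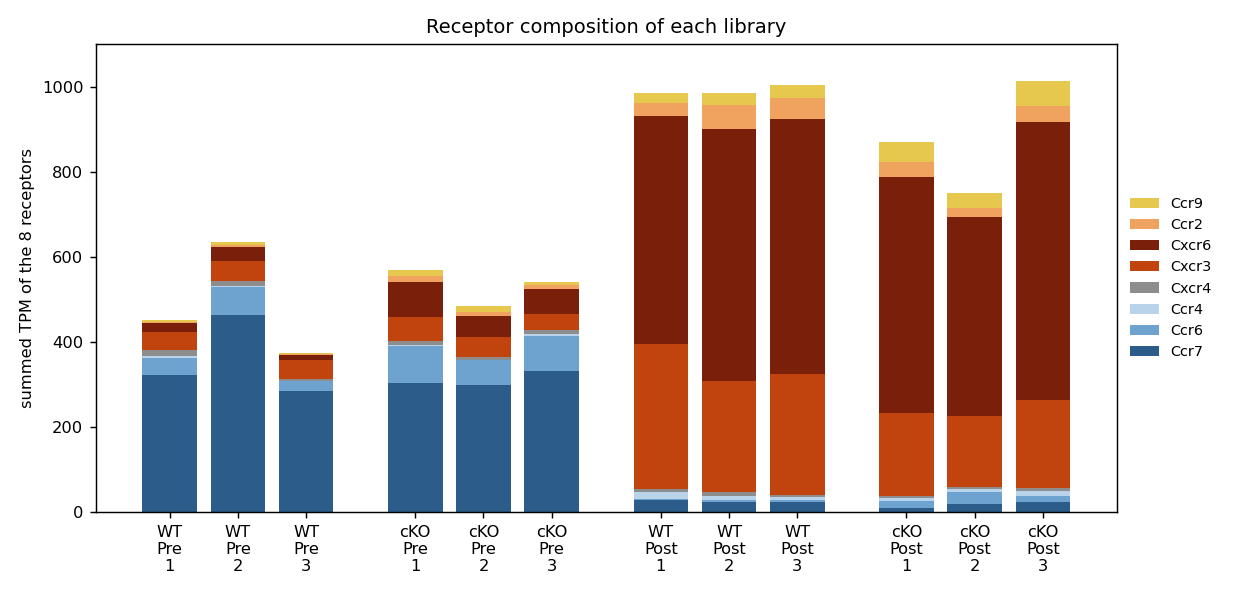
Summed TPM of the 8 receptors (y axis) in each of the 12 libraries (x axis, by group and replicate), stacked by receptor. Ccr7 makes up 53.3% to 76.0% of the stack in the 6 Pre-Tx libraries, and Cxcr6 makes up 54.3% to 64.7% in the 6 Post-Tx libraries.

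Before transplant, loss of TCF-1 went with more Cxcr6 and more Ccr2 transcript, the effector receptor for Cxcl16 and the receptor for Ccl2. Of the 8 receptors, 2 were called higher in cKO and 0 lower, where 14.2% of 17021 genes were called, 8.52% higher and 5.65% lower. At an unadjusted p under 0.05 the counts were the same, 2 higher and 0 lower, and DESeq2 called 2 higher and 0 lower. The median log2 fold change of the 8 was 0.06, against -0.11 over all genes tested.

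Cxcr6 was at 134, 81.7 and 98.3 CPM in the Pre-Tx cKO libraries and at 38.1, 60.2 and 24.2 CPM in the Pre-Tx WT libraries. Every cKO library lay above every WT library. The log2 fold change was 1.33 (standard error 0.33, edgeR adjusted p = 0.0263), a 2.56-fold ratio of the mean CPM. Leaving out 1 library ended the call in 4 of 6 cases, with adjusted p = 0.0891 or 0.0513 when replicate 1 or 3 of cKO was dropped, and 0.121 or 0.0753 when replicate 1 or 3 of WT was, in edgeR, and the fold change stayed between 1.04 and 1.76.

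Ccr2 was at 41.5, 25.8 and 24.7 CPM in Pre-Tx cKO and at 12.7, 13.4 and 9.75 CPM in Pre-Tx WT. Again the groups did not overlap. The log2 fold change was 1.33 (standard error 0.37, edgeR adjusted p = 0.0385), and the call ended on leaving out any of the 6 libraries, with adjusted p from 0.0523 to 0.127 and fold changes from 1.09 to 1.52. The Ccr2 call also ended with voom and limma on counts (adjusted p = 0.053) and with protein-coding transcripts alone (edgeR adjusted p = 0.0684). Both calls ended with upper-quartile normalization, at adjusted p = 0.0523 for Cxcr6 and 0.0832 for Ccr2, a scaling that moved the median of all genes from -0.11 to -0.47.

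Natural killer cell markers also differed in sum between the genotypes before transplant. The 6 markers summed to 176 to 269 CPM in Pre-Tx cKO and 63.4 to 125 CPM in Pre-Tx WT, with none of the 6 at a count of 0. Ncr1 and Klrb1c were called higher (2 of 6), where 8.52% of all genes were. The part of natural killer cells in the Cxcr6 and Ccr2 differences was not tested. The 10 monocyte and macrophage markers summed to 3160 to 3682 CPM in Pre-Tx cKO and 3257 to 4471 CPM in Pre-Tx WT, with none of the 10 at a count of 0. Of these 10, Itgam alone was called higher, against the same 8.52% of all genes. Lyz2 alone was at 1728 to 2038 CPM in Pre-Tx cKO and 1933 to 2978 CPM in Pre-Tx WT, Itgam rose by 1.49 on the log2 scale (edgeR adjusted p = 0.00904), and the part of these cells in the Ccr2 difference was not tested.

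The other 6 receptors were not called before transplant. Ccr7 was at 510.5, 514 and 576 CPM in Pre-Tx cKO and 649, 864 and 594 CPM in Pre-Tx WT, with no overlap in CPM. Its log2 fold change was -0.44 (standard error 0.20, edgeR adjusted p = 0.154), and in TPM the groups overlapped. Its direction turned with the scaling, since edgeR called it lower with upper-quartile normalization (-0.79, adjusted p = 0.0275) and higher with counts scaled to CD3 (0.51, adjusted p = 0.0499). Ccr6 was at 73.4, 52.4 and 89.4 CPM in cKO and 43.4, 62.6 and 29.2 CPM in WT, overlapping groups that gave 0.64 on the log2 scale (standard error 0.32). B cells express both Ccr7 and Ccr6, and the 10 B cell markers summed to 9234 to 9927 CPM in Pre-Tx cKO and 7724 to 8860 CPM in Pre-Tx WT. Of these markers 4 were called higher and 0 lower, where 8.52% and 5.65% of all genes were. The part of B cell RNA in the genotype values of Ccr7 and Ccr6 was not tested. In CPM, 3 of the 8 receptors had groups that did not overlap (Cxcr6, Ccr2 and Ccr7), where 41.4% of all genes tested had none, 21.2% with cKO above and 20.2% with cKO below.

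Cxcr3 before transplant was at 78.7, 69.6 and 54.5 CPM in cKO and 75.8, 73.2 and 79.4 CPM in WT, a log2 fold change of -0.21 (standard error 0.25). Ccr9 differed by 0.30 (standard error 0.40), Cxcr4 by -0.20 (standard error 0.48) and Ccr4 by -0.18 (standard error 0.91) on the log2 scale, all with overlapping groups. Ccr4 was the least certain of the 8, since it rested on 9 counts in Pre-Tx cKO replicate 2 and on 32 to 142 counts in the other 5 Pre-Tx libraries. Pre-Tx WT replicate 3 was the lowest Pre-Tx library for Cxcr4, with 5.96 CPM against 11.8 to 22.5 CPM in the others.

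**Figure D2:**
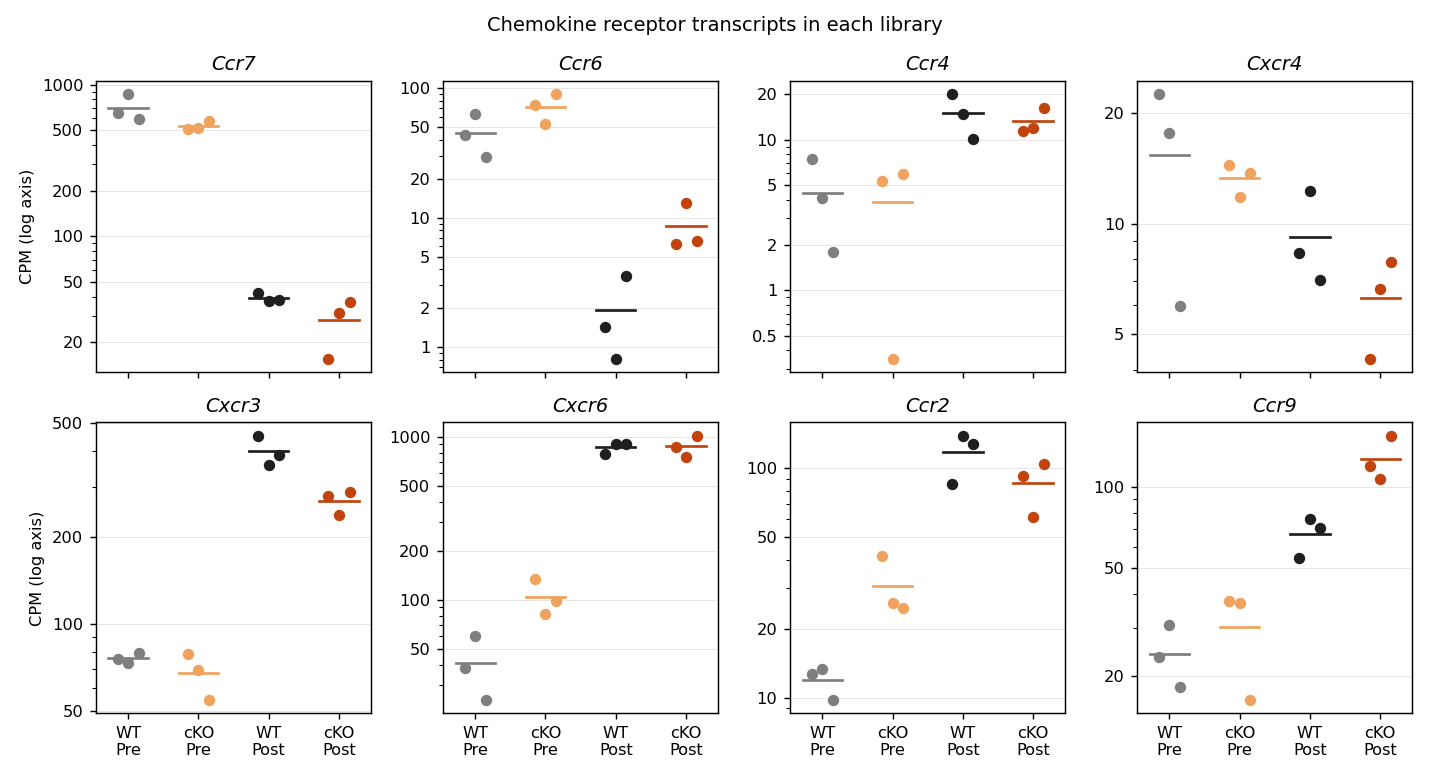
CPM of each receptor on a log axis (y axis) in the 4 groups (x axis), with a point per library and a line at the group mean (n = 3). For Cxcr6 and Ccr2 the Pre-Tx cKO points lie above all Pre-Tx WT points, and for Cxcr3 the Post-Tx cKO points (239 to 288 CPM) lie below the Post-Tx WT points (356 to 451 CPM).

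After transplant, Cxcr3, the receptor for the interferon-induced ligands Cxcl9 and Cxcl10, was lower per total count in cKO. Of the 8 receptors, 0 were called higher and 1 lower, where 6.65% of 19287 genes were called, 3.52% higher and 3.13% lower. At an unadjusted p under 0.05 edgeR gave 2 higher and 3 lower, and DESeq2 called 1 higher and 3 lower after adjustment. The median log2 fold change of the 8 was -0.70, against 0.09 over all genes tested.

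Cxcr3 was at 277, 239 and 288 CPM in Post-Tx cKO and at 451, 356 and 387 CPM in Post-Tx WT. The groups did not overlap, and the mean CPM was 1.48-fold higher in WT. The log2 fold change was -0.97 (standard error 0.23, edgeR adjusted p = 0.0293). The call ended in 4 of the 6 fits that left out 1 library, with adjusted p = 0.158 or 0.0658 when replicate 2 or 3 of cKO was dropped, and 0.109 or 0.0728 when replicate 1 or 3 of WT was. It also ended with upper-quartile normalization (edgeR adjusted p = 0.0538), with voom and limma on TPM (adjusted p = 0.075) and with protein-coding transcripts alone (edgeR adjusted p = 0.0919). It ended too when counts were scaled to the CD3 chains, at a log2 fold change of -0.089 (edgeR adjusted p = 0.628), an alternative chosen after seeing that T cell markers fell in cKO. Those 9 markers summed to 5164 to 5720 CPM in Post-Tx cKO and 7012 to 8371 CPM in Post-Tx WT.

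Ccr2 was at 92.6, 61.4 and 104 CPM in Post-Tx cKO and at 85.6, 139 and 128 CPM in Post-Tx WT, overlapping groups that gave -0.82 on the log2 scale (standard error 0.26, edgeR adjusted p = 0.0636). Ccr7 was at 15.5, 31.1 and 37.0 CPM in cKO and 42.3, 37.2 and 38.1 CPM in WT, groups that did not overlap but were not called (log2 fold change -0.91, standard error 0.32, edgeR adjusted p = 0.0783). DESeq2 and voom with limma on counts, and edgeR with no filter on low counts, called both Ccr2 and Ccr7 lower. Cxcr6 had mean CPM within 1.02-fold of each other in the genotypes, at 869.8, 747 and 1018 in cKO and 788, 901 and 902 in WT, and its log2 fold change with TMM factors was -0.36 (standard error 0.22, edgeR adjusted p = 0.258).

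Ccr6 and Ccr9 lay in the other direction. Ccr6 was at 6.24, 13.0 and 6.59 CPM in Post-Tx cKO and 1.44, 0.814 and 3.55 CPM in Post-Tx WT, which are 112 to 300 counts against 22 to 143 counts. Its log2 fold change was 1.71 with a wide standard error of 0.69 (edgeR adjusted p = 0.107). Ccr9 was at 120.0, 107 and 155 CPM in cKO and 54.3, 76.1 and 70.6 CPM in WT, which gave 0.55 on the log2 scale (standard error 0.24, edgeR adjusted p = 0.135). Ccr6 was called higher by DESeq2 (1.67, adjusted p = 0.0436) and by voom with limma on counts (1.92, adjusted p = 0.0497), and Ccr9 by edgeR with upper-quartile normalization (0.82, adjusted p = 0.0476). Neither pair of groups overlapped, and together with Cxcr3 and Ccr7 these made 4 of 8 receptors without overlap in CPM, where 37.0% of all genes tested had none. Ccr6 and Ccr9 lay above and Cxcr3 and Ccr7 below, as 30.5% and 6.53% of genes did.

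Cxcr4 (log2 fold change -0.94, standard error 0.50) and Ccr4 (-0.59, standard error 0.41) had overlapping groups after transplant. Erythroid markers were higher in Post-Tx cKO (5 of 6 called, sums of 1645 to 5745 CPM against 709 to 1481 CPM), where 3.52% of all genes were called higher. Transcripts of olfactory receptors, which T cells do not use, summed to 4484 to 12030 CPM against 1087 to 3135 CPM. Before transplant the olfactory sums lay the other way, at 879 to 1550 CPM in cKO and 2532 to 7011 CPM in WT. The part of erythroid and olfactory receptor transcripts in the receptor values and interactions was not tested at either stage.

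**Figure D3:**
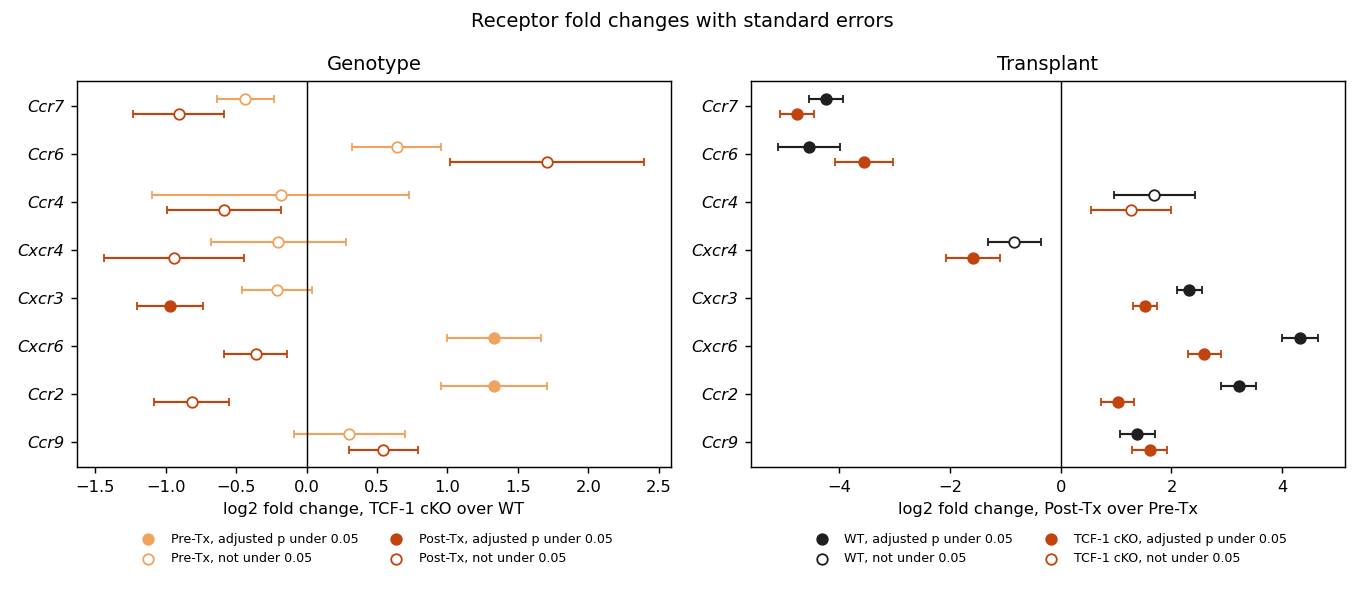
Log2 fold changes (x axis) of the 8 receptors (y axis) with standard errors, for cKO over WT before and after transplant (left) and for Post-Tx over Pre-Tx in each genotype (right), with filled points at an edgeR adjusted p under 0.05. Cxcr6 and Ccr2 are the filled Pre-Tx points on the left (both 1.33), and Cxcr3 is the filled Post-Tx point (-0.97).

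The genotype difference of Cxcr6 and of Ccr2 changed with transplant. In the model of all 12 libraries, 2 receptors were called lower and 0 higher for the interaction, where 28.6% of 21434 genes were called, 17.1% higher and 11.5% lower. At an unadjusted p under 0.05 the counts were 3 lower and 0 higher, and DESeq2 called 3 lower and 0 higher. For Ccr2 the log2 difference between genotypes was 2.19 lower after transplant than before (interaction -2.19, standard error 0.42, edgeR adjusted p = 0.00332). For Cxcr6 it was 1.72 lower (interaction -1.72, standard error 0.41, edgeR adjusted p = 0.0083). Both calls held in all 11 alternative settings and in all 12 fits that left out 1 library, with edgeR adjusted p of at most 0.0137 for Ccr2 and 0.0311 for Cxcr6 among those 12. Cxcr3 gave -0.80 (standard error 0.30, edgeR adjusted p = 0.0554) and was called in 5 of the 11 settings. The median over the 8 was -0.63, against 0.37 over all genes. Of 6 natural killer cell markers Klrb1c alone (-2.40) was called lower for the interaction, and of 10 monocyte and macrophage markers Itgam alone (-1.52). Of all genes, 11.5% were called lower, and in each of the 2 lists 2 markers had a positive value. The part of these cells in the interaction values of Cxcr6 and Ccr2 was not tested.

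Seen from the side of transplant, Cxcr6 rose 21.1-fold in mean CPM in WT and 8.40-fold in cKO, and Ccr2 rose 9.85-fold in WT and 2.81-fold in cKO. On the log2 scale of edgeR, Cxcr6 changed by 4.32 (standard error 0.33) in WT and by 2.60 (standard error 0.30) in cKO, and Ccr2 by 3.21 (standard error 0.32) and 1.03 (standard error 0.29). The difference between these pairs is the interaction tested above. Mean Cxcr6 CPM went from 40.8 to 864 in WT and from 105 to 878 in cKO.

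In WT, 4 of the 8 receptors rose with transplant and 2 fell, where 22.0% of genes were called, 11.6% higher and 10.4% lower. In cKO, 4 rose and 3 fell, where 26.7% of genes were called, 14.2% higher and 12.5% lower. Both genotypes share the direction for Cxcr3, Cxcr6, Ccr2 and Ccr9, which rose, and for Ccr6 and Ccr7, which fell. In CPM, 5 receptors lay above and 2 below without overlap in WT, where 38.6% of genes had no overlap (20.7% above and 17.9% below). In cKO, 5 lay above and 3 below, where 51.2% had no overlap (40.6% above and 10.6% below). Day, host, cell state and purity of the sort all differ between the stages and cannot be told apart.

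Ccr7 made the steepest fall in cKO, by 4.76 on the log2 scale (standard error 0.31, edgeR adjusted p = 1.3e-08), and fell by 4.24 in WT (standard error 0.30, edgeR adjusted p = 3.6e-08). From 510.5 to 864 CPM in the 6 Pre-Tx libraries it went to 15.5 to 42.3 CPM in the 6 Post-Tx libraries. Ccr6 fell by 4.55 in WT (standard error 0.56) and by 3.56 in cKO (standard error 0.53), with edgeR adjusted p = 1.5e-05 and 0.000133. B cells express both receptors, and all 10 B cell markers fell with transplant in both genotypes, their median by 7.64 in WT and by 6.95 in cKO on the log2 scale, so the part of B cell RNA in the fall of Ccr7 and Ccr6 was not tested.

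Cxcr3 rose by 2.32 on the log2 scale in WT (standard error 0.22, edgeR adjusted p = 1.2e-06) and by 1.52 in cKO (standard error 0.22, edgeR adjusted p = 0.000102). Ccr9, the receptor for Ccl25, rose by 1.38 in WT (standard error 0.32, edgeR adjusted p = 0.00461) and by 1.60 in cKO (standard error 0.32, edgeR adjusted p = 0.0018). Cxcr4 fell by 1.58 in cKO (standard error 0.48, edgeR adjusted p = 0.0254), from 11.8 to 14.5 CPM down to 4.29 to 7.88 CPM, and this call ended without any of Pre-Tx cKO replicates 1 and 3 and Post-Tx replicates 1 and 2, at adjusted p from 0.0531 to 0.101. The Cxcr4 call ended as well with upper-quartile normalization (edgeR adjusted p = 0.0632), with protein-coding transcripts alone (edgeR adjusted p = 0.0542) and with voom and limma on TPM, which gave -0.95 (adjusted p = 0.176). In WT, where the groups overlapped, Cxcr4 gave -0.84 (standard error 0.47). The Ccr2 rise in cKO ended without Pre-Tx replicate 2 or Post-Tx replicate 1 or 3, at edgeR adjusted p from 0.0585 to 0.0761. Ccr4, known from skin-homing and regulatory T cells, was higher after transplant in every library of both genotypes (10.05 to 20.0 CPM against 0.351 to 7.45 CPM), yet was not called by edgeR in either, at log2 fold changes of 1.69 (standard error 0.73) in WT and 1.27 (standard error 0.73) in cKO. It was called higher in WT by DESeq2 (adjusted p = 0.0375), by edgeR with no filter (adjusted p = 0.0282) and by edgeR on the 6 WT libraries alone (adjusted p = 0.0341), and in cKO by voom with limma on counts (2.12, adjusted p = 0.0463).

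Because T cell transcripts were a smaller part of the cKO libraries, each receptor was also set against the CD3 chains (Cd3d, Cd3e and Cd3g) of its own library. The CD3 sum was 395 ± 28.5 CPM in Pre-Tx cKO, 743 ± 41.6 CPM in Pre-Tx WT, 1644 ± 68.7 CPM in Post-Tx cKO and 2294 ± 237 CPM in Post-Tx WT. Before transplant Cd3d and Cd3e were lower in cKO without overlap. Cd3g (108 to 147 CPM in cKO, 123 to 187 CPM in WT) and the T cell marker Cd2 (372 to 488 and 348 to 484 CPM) overlapped. Whether the CD3 sum was lower through fewer T cells or less CD3 RNA per cell was not tested. Per 100 CPM of CD3, Cxcr6 was at 36.0, 21.1 and 23.0 in Pre-Tx cKO against 5.38, 8.20 and 3.07 in Pre-Tx WT, a 4.81-fold ratio of means. Ccr2 was at 11.2, 6.67 and 5.78 against 1.80, 1.82 and 1.24, a 4.86-fold ratio. Dividing by CD3 multiplies the cKO to WT ratio of every gene by the same factor, and in the fits scaled to CD3 the median of all genes moved from -0.11 to 0.84 on the log2 scale before transplant and from 0.09 to 0.95 after it.

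On this scale 5 receptors were higher in Pre-Tx cKO with no overlap, namely Cxcr3, Cxcr6, Ccr2, Ccr6 and Ccr7, and 0 were lower, where 53.4% of all genes did not overlap, 47.4% higher and 5.93% lower. After transplant Cxcr3 was at 16.9, 15.2 and 16.9 per 100 CPM of CD3 in cKO and 17.8, 17.2 and 16.99 in WT. The means differed by 1.06-fold, with ranges that only just failed to overlap. Cxcr6, Ccr6 and Ccr9 were higher in Post-Tx cKO without overlap, by 1.40-fold, 6.32-fold and 2.59-fold of the means, and Cxcr3 was lower, where 51.1% of all genes did not overlap, 50.3% higher and 0.762% lower. With transplant, Cxcr3, Cxcr6 and Ccr2 were higher and Cxcr4, Ccr6 and Ccr7 lower without overlap in WT, where 60.8% of genes did not overlap (2.25% higher and 58.5% lower). In cKO, Cxcr6 was higher and 3 receptors were lower, where 53.8% did not overlap (7.60% higher and 46.2% lower).

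In the fits with counts scaled to CD3, edgeR called Cxcr6 (2.27), Ccr2 (2.28), Ccr6 (1.56), Ccr9 (1.26), Cxcr3 (0.76) and Ccr7 (0.51) higher in Pre-Tx cKO, 6 of 8 with 0 lower, where 38.9% of genes were called (37.1% higher and 1.84% lower). It called Ccr6 (2.65), Ccr9 (1.37) and Cxcr6 (0.48) higher in Post-Tx cKO, 3 of 8 with 0 lower, where 19.6% were called (19.5% higher and 0.114% lower), each value being a log2 fold change. The interaction calls of Cxcr6 (-1.78, edgeR adjusted p = 0.0125) and Ccr2 (-2.29, edgeR adjusted p = 0.00927) remained and Cxcr3 joined them (-0.84), 3 of 8 lower, where 24.4% of genes were called (13.1% higher and 11.3% lower). With transplant, 3 receptors were called higher and 3 lower in WT, where 57.2% were called (1.53% higher and 55.6% lower). In cKO, 1 was higher and 3 lower, where 45.4% were called (1.78% higher and 43.6% lower). The falls of Ccr7 and Ccr6 with transplant remained too, while the rises of Ccr9 in both genotypes and of Cxcr3 and Ccr2 in cKO changed sign and were no longer called.

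**Figure D4:**
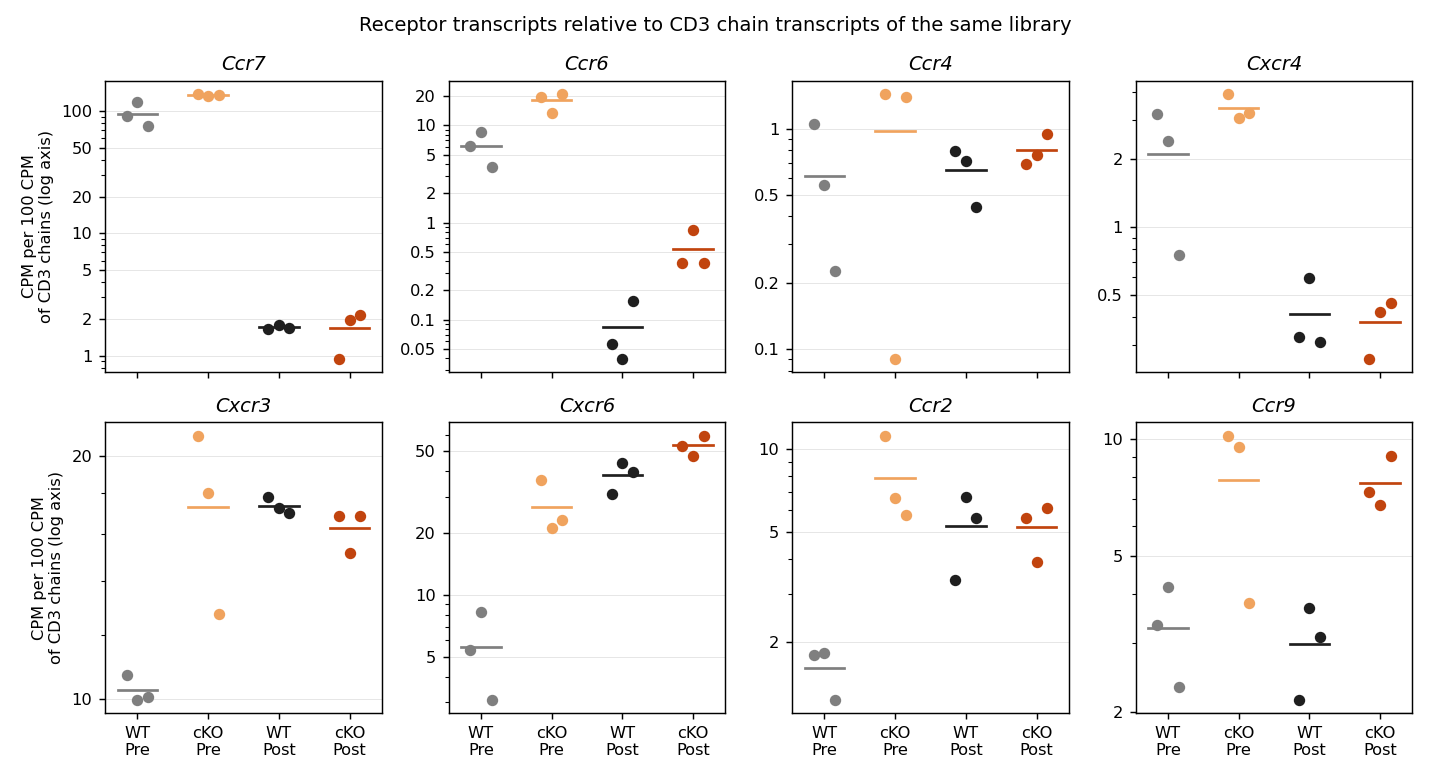
CPM of each receptor per 100 CPM of the CD3 chains Cd3d, Cd3e and Cd3g of the same library, on a log axis (y axis), in the 4 groups (x axis), with a point per library and a line at the group mean (n = 3). The Cxcr3 points of Post-Tx cKO (15.2 to 16.9) and Post-Tx WT (16.99 to 17.8) nearly meet, and the Cxcr6 and Ccr2 points of Pre-Tx cKO lie above those of Pre-Tx WT.

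The receptors differed in how many transcripts their counts were spread over. Cxcr3 and Ccr7 had 1 transcript each, and Cxcr6-201 took at least 90.5% of the Cxcr6 TPM in every library. Ccr2 was spread over 4 protein-coding transcripts, of which Ccr2-201 had 133 to 190.0 estimated counts in Pre-Tx cKO and 0 to 29.9 in Pre-Tx WT. Of Ccr6 TPM after transplant, 26.5% to 92.5% in WT and 62.4% to 66.9% in cKO came from Ccr6-209, a non-coding transcript of 369 bases, and it rested on only 6.48 to 71.9 estimated counts a library. Before transplant that transcript took 0.575% to 13.0%. On average, 60.9% of Ccr6 TPM in Post-Tx WT and 64.1% in Post-Tx cKO was thus not from a protein-coding transcript.

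For Ccr9, the transcript with the largest mean share differed between the genotypes before transplant. Ccr9-203, of 5197 bases, took 24.3% to 92.3% of Ccr9 TPM in Pre-Tx WT and 6.28% to 11.4% in Pre-Tx cKO. Ccr9-201 took 0% to 15.98% in Pre-Tx WT and 57.4% to 72.0% in Pre-Tx cKO. After transplant Ccr9-201 led in both, with 66.9% to 78.5% in WT and 44.9% to 68.8% in cKO. These splits between transcripts are estimates of the pseudoalignment and were not tested.

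Of other chemokine receptors, 2 of 12 tested rose in Pre-Tx cKO and 0 fell, where 8.52% of all genes rose and 5.65% fell. They were Ccr1 (log2 fold change 1.46, standard error 0.40, edgeR adjusted p = 0.0351) and Ccr3 (1.84, standard error 0.50, edgeR adjusted p = 0.0356), known from monocytes and eosinophils, and neither call held with upper-quartile normalization. Ccr1 was at 49.3, 38.8 and 23.1 CPM in cKO and 11.7, 17.5 and 10.4 CPM in WT. After transplant 0 of 11 were called, where 6.65% of all genes were (3 higher and 0 lower at an unadjusted p under 0.05, and 2 higher by DESeq2). Of the 15 ligands of the 8 receptors, 7 were tested before transplant and 12 after, and 0 were called at either stage by edgeR or DESeq2, where edgeR called 14.2% and 6.65% of all genes, with 1 higher at an unadjusted p under 0.05 at each. For the interaction, 1 of 14 in each list was called, where 28.6% of all genes were, Ackr4 (4.63, edgeR adjusted p = 0.0114) and Ccl2 (6.52, edgeR adjusted p = 0.019), both higher and at no more than 1.96 and 2.83 TPM in any library.

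Genes that carry the receptor signal are the G protein subunits and the kinases and adaptors behind them. Of 20 such genes, 8 rose in Pre-Tx cKO and 0 fell, where 8.52% and 5.65% of all genes did, with a median log2 fold change of 0.71. The 4 with the smallest adjusted p were Gnai3, a G protein alpha subunit (1.73, edgeR adjusted p = 0.00831), Dock2, which activates Rac in migrating lymphocytes (1.31, 0.0105), its partner Elmo1 (1.23, 0.0133) and Pik3cg, a kinase that G protein subunits activate (1.37, 0.0135). After transplant 0 of 20 were called, where 6.65% of all genes were, with 1 higher and 8 lower at an unadjusted p under 0.05 and 8 lower by DESeq2, and the median was -0.44. For the interaction 10 of 20 were lower, where 11.5% of all genes were, with the smallest adjusted p for Dock2 (-2.09), Elmo1 (-1.99), Gnai3 (-2.24) and Rassf5 (-1.84). With upper-quartile normalization the Pre-Tx calls were 4 higher and 3 lower, and scaled to CD3 they were 16 higher and 0 lower, where 37.1% of all genes were higher, with a Post-Tx median of 0.40.

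Among 14 genes of receptor desensitization, 1 rose in Pre-Tx cKO and 0 fell, where 8.52% and 5.65% of all genes did. It was Rgs2, which speeds the shut-off of G proteins (1.62, edgeR adjusted p = 0.0141). After transplant Arrb1, an arrestin, rose (1.25, edgeR adjusted p = 0.0448), while Grk6, a receptor kinase (-0.86, 0.041), and Rgs10 (-1.19, 0.042) fell. Of all genes, 3.52% rose and 3.13% fell there. The interaction was lower for 2 of 14, where 11.5% of all genes were, Grk6 (-1.07) and Rgs19 (-0.99). Among 12 transcription factors tied to the receptors, 1 rose and 1 fell in Pre-Tx cKO, where 8.52% and 5.65% of all genes did. Bcl6 rose (1.07, edgeR adjusted p = 0.029). After transplant 0 of 12 were called by edgeR, where 6.65% of all genes were, with 8 lower at an unadjusted p under 0.05 and 2 lower by DESeq2. The interaction was lower for 5 of 12, against the same 11.5% of all genes, namely Bcl6 (-2.19), Foxo1 (-1.40), Rora (-1.53), Id2 (-1.31) and Prdm1 (-2.06).

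Among 6 partners in lymph node homing, 2 rose and 1 fell in Pre-Tx cKO, where 8.52% and 5.65% of all genes did. The integrin chain Itga4 rose (1.06, edgeR adjusted p = 0.0398), and Itgb7, the chain with which Itga4 pairs in gut homing, fell (-0.82, 0.0303). After transplant 0 rose and 2 fell, where 3.52% and 3.13% of all genes did. They were S1pr1, which takes T cells out of lymph nodes (-1.17, edgeR adjusted p = 0.0183), and Itgb7 (-0.82, 0.0451). The interaction was lower for 4 of 6, where 11.5% of all genes were, among them S1pr1 (-1.83), Itga4 (-1.76) and Itgal (-0.95). With upper-quartile normalization Itga4 was not called higher before transplant, and scaled to CD3 neither S1pr1 nor Itgb7 was called after it.

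Across the 12 libraries, the 28 pairs of receptors correlated between -0.94 and 0.96 in log2 CPM, a range that mostly reflects the 2 stages they share. Around the group means the range was -0.35 to 0.72, and the highest was Cxcr6 with Ccr2 (0.72), which also had the highest correlation over all 12 libraries (0.96). Among 10810 protein-coding genes, those with the highest Pearson correlation to each receptor were taken as a description, over 12 libraries that share library depth and composition within a stage. For Cxcr3 they were Cst7, Ifitm1 and Spn (0.99 each). For Cxcr6 they were Hmgb2 (0.996), Mindy3 (0.99) and Kpna2 (0.99), and for Ccr2 Stat4, Nabp1 and Rab8b (0.98 each). Ccr7 was nearest to Irf5, Cd37 and Ptp4a3 (0.99 each), and Ccr6 to Sdc4 (0.98), Rubcnl (0.97) and Cd209a (0.97). Ccr9 was nearest to Gbp2b (0.96), Ccl6 (0.95) and Ube2t (0.94), and Ccr4 to Poc1a (0.95), Xaf1 (0.95) and Eme1 (0.93). Cxcr4 was nearest to Vps51 (0.94), Pdk1 (0.93) and Tcf7 (0.92), the gene targeted in cKO mice. The named genes depended on the measure. Of the 3 named per receptor, Spearman correlation kept 0 among its nearest 3 for Cxcr3, Cxcr6, Ccr2 and Ccr7. It kept 1 for Cxcr4, Ccr4 and Ccr6, and 3 for Ccr9.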

How the data were processed

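RNA of 12 libraries (4 groups of 3) was measured. The authors extracted total RNA, made cDNA with the SMARTseq HT kit and libraries with Nextera XT, and ran kallisto 0.46.2. They deposited estimated counts and TPM values per transcript, with no further normalization, and named mm9 as the build. The sources used here do not give the transcript set. Of 117497 transcripts, 116428 (99.1%) were matched without version to GENCODE M21 (GRCm38) and summed to 35907 genes, and counts were rounded. The deposited TPM values were summed the same way.

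With R 4.3.3, edgeR 4.0.16 was run with filterByExpr, TMM and the quasi-likelihood test on the 6 libraries of a stage, or on all 12 for the interaction and the transplant changes. P-values were adjusted by Benjamini and Hochberg over all genes tested and called under 0.05. The fits were tested on simulated counts. Alternatives used limma 3.58.1 and DESeq2 1.42.0. Python 3.11.15 (matplotlib 3.10.9, numpy 2.4.6, pandas 2.3.3) made the tables and plots. No 2 libraries of a group were copies, since their counts differed by a mean chi-square of 36.8 to 111 per gene, where sampling noise alone gives about 1. All 8 receptors passed the filter on low counts in every comparison. Receptors and gene lists were chosen with earlier results of these data known. All 8 receptors are named. A list member is named where called in a genotype comparison, up to 4 with the smallest adjusted p, and the 3 protein-coding genes nearest to each receptor by Pearson correlation of log2 CPM (prior count 2, mean CPM of at least 5) are named. Results for some related genes are not reported here. Promoters are from RefSeq on GRCm38.p6 (7 of 8 receptors matched), and proteins were not used here.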

Additional observations from a re-analysis of the deposited data

Results flagged for a closer look

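The genotype difference of Cxcr6 and that of Ccr2 differed between the stages by a test of the difference itself, the interaction of genotype and transplant in edgeR over 12 libraries. For Cxcr6 the log2 difference was 1.72 lower after transplant (interaction -1.72, adjusted p = 0.0083), and for Ccr2 it was 2.19 lower (interaction -2.19, adjusted p = 0.00332). Of all genes tested, 28.6% were called for the interaction, 11.5% lower. In CPM, all 3 TCF-1 cKO libraries lay above all 3 WT libraries before transplant for both receptors, and the groups overlapped after it. Before transplant 41.4% of all genes tested had groups without overlap, 21.2% with cKO above.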

How the results depend on the processing

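Of 847 values of the receptors and Tcf7 under other settings, 766 stayed on the same side of the threshold, 33 became called and 40 lost a call. The other 8 changed sign where the main value, the new value or both were called. The 766 include sign changes between values that were not called. Cxcr4 between genotypes Pre-Tx, for example, reached 0.091 on the log2 scale with a library left out. All 8 sign changes that involved a call came from scaling to CD3, chosen after seeing the data. Log2 fold changes were then 0.76 for Cxcr3, 0.51 for Ccr7 and 0.88 for Tcf7 between genotypes Pre-Tx, 0.48 for Cxcr6 Post-Tx, -0.14 for Ccr9 with transplant in WT, and -0.087 for Cxcr3, -0.59 for Ccr2 and -0.027 for Ccr9 with transplant in cKO. The Cxcr6 and Ccr2 interaction calls held throughout. The cause of the other changes was not tested.

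Genes called for genotype Post-Tx numbered 1283, against 798 with upper-quartile normalization (687 higher and 111 lower, against 679 and 604), 2205 with no filter, 3727 with DESeq2, 2850 with voom on counts, 128 with voom on TPM, 149 with protein-coding transcripts, 137 with 12 libraries in 1 fit and 3777 scaled to CD3. For genotype Pre-Tx they numbered 2413, against 4066 with DESeq2, 1331 with protein-coding transcripts, 3665 with 12 libraries in 1 fit and 6628 scaled to CD3, and upper-quartile normalization gave 636 higher and 2070 lower, against 1451 and 962. For the interaction they numbered 6134, against 1797 with voom on TPM and 3504 with protein-coding transcripts. Upper-quartile normalization gave 4865 higher and 720 lower, against 3665 and 2469. For transplant in WT 4706 became 12252 scaled to CD3, and in cKO 5713 became 3556 with voom on TPM, 3771 with protein-coding transcripts and 9736 scaled to CD3. Leaving out 1 library gave 14 (without Pre-Tx WT replicate 1) to 2611 genes for genotype Pre-Tx, 6 (without Post-Tx cKO replicate 2) to 3209 Post-Tx, 3013 to 7297 for the interaction, 2761 to 5154 for transplant in WT and 2775 to 4828 in cKO.

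Same-numbered libraries deviated together with r from -0.27 to 0.25, over 0.1 in 2 of 18 pairs, both between Post-Tx WT and Post-Tx cKO. Differently numbered libraries were not compared, so these values cannot tell whether libraries of a number share a batch or pairing. With the replicate block 3257 genes were called Post-Tx and 2067 Pre-Tx, against 1283 and 2413 without it. Ccr2 was then no longer called Pre-Tx (1.29, edgeR adjusted p = 0.0605) and was called Post-Tx (-0.85, edgeR adjusted p = 0.0444).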
